A study of Mus musculus with 2 samples.

Results

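The cells described here are double-positive thymocyte-like cells, 116 of 13298 filtered cell barcodes from 2 single-cell RNA libraries of sorted mouse thymus cells. They were chosen by 3 measured genes: a barcode was a member when its summed UMIs (unique molecular identifiers, each counting 1 captured transcript) of Rag1, Dntt and Arpp21 reached 2 and it held no UMI of Cd79a, a B cell gene, or Ncr1, an NK cell gene. Barcodes had first to hold at least 500 genes and at most 10% mitochondrial UMIs. The rule found 61 of 7395 control barcodes, or 0.825% (95% interval 0.632 to 1.06), and 55 of 5903 barcodes of the conditional knockout (cKO), or 0.932% (0.703 to 1.21). A UMI of Cd3d, Cd3e or Cd3g was found in 96.6% of the filtered control and 60.9% of the filtered cKO barcodes. Of the barcodes with such a UMI, members made up 0.840% in control and 1.47% in cKO. Levels of Rag1, Dntt and Arpp21 are therefore a description of the choice and not a result.

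The control mice were Tbx21Cre Rosa26-YFP+ and the cKO mice were Tbx21Cre Ets1F/F Rosa26-YFP+, with no further treatment named and no age given. Both genotypes thus carried a YFP reporter and Cre recombinase driven by Tbx21, which encodes T-bet. YFP+ thymus cells of 2 mice per genotype were sorted by flow cytometry and made into 1 library per genotype, which the sample titles call thymic iNKT1 cells, the T-bet-expressing subset of invariant natural killer T cells. The mice within a library cannot be told apart, so no difference between the libraries has a replicate check and no test was made. All intervals are exact 95% intervals and cover counting error only. Neither YFP nor Cre is among the listed genes, so the reporter could not be read in the members. The labels do not say which part of Ets1 is flanked by loxP sites, and a UMI from the 3′ end of the transcript does not show whether that part was present.

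Double-positive thymocytes carry both CD4 and CD8 coreceptors. They follow the double-negative stages, in which the T cell receptor β chain is assembled and paired with the pre-TCR α chain, and they rearrange the α chain genes with the RAG1 and RAG2 recombinase. Cells whose receptor recognises a ligand are positively selected, induce Cd69, lose Rag expression and mature into CD4, CD8 or iNKT cells, and T-bet is known from later, effector stages.

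The deposited libraries held 10102 control and 11206 cKO barcodes, and filtered barcodes had a median of 2666 UMIs in control and 5533 in cKO. Of the barcodes, 29 occurred in both libraries, and 0 of these were members. Members had a median of 2003 UMIs (751 to 17077) and 974 genes in control, and 3318 UMIs (1530 to 36822) and 1678 genes in cKO. Mitochondrial genes gave a median of 4.08% of the UMIs of control members and 2.44% in cKO members. For comparison, other T cells were barcodes with at least 2 UMIs of the 3 Cd3 genes and none of the 5 genes of the rule, 6290 in control and 3194 in cKO, with medians of 3104.5 and 6993 UMIs. B cells had at least 2 Cd79a UMIs (175 control, 300 cKO, medians of 2346 and 9205.5 UMIs), NK cells a Ncr1 UMI without Cd3 or Cd79a (104 control, 51 cKO), and mature CD8 T cells at least 2 Cd8b1 UMIs without Gzmk or rule genes (382 control, 55 cKO).

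The rule was met with different strength in the libraries. In control, 26 members had 2 rule UMIs, 8 had 3 and 27 had 4 or more, with a median of 3 and a maximum of 57. In cKO, 3 members had 2, 2 had 3 and 50 had 4 or more, with a median of 20 and a maximum of 47. All 3 rule genes were detected together in 24 of 61 control members (39.3%) and 48 of 55 cKO members (87.3%). Dntt, a template-free DNA polymerase that adds bases at receptor gene junctions, was found in 54 control and 53 cKO members, and Rag1 in 32 and 51. Just outside the threshold lay barcodes with exactly 1 rule UMI, 74 in control with a median of 1218.5 UMIs and 19 in cKO with a median of 6379. At least 2 rule UMIs were found in 0 of 175 B cells in control, which allows a share of up to 2.09%, and in 4 of 300 in cKO.

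After these values were seen, members were divided into 3 sets. Strongly marked members had at least 4 rule UMIs and fewer than 8000 UMIs in all, 20 in control (median 2679.5 UMIs) and 44 in cKO (median 3207). Weakly marked members had 2 or 3 rule UMIs and fewer than 8000 UMIs, 33 in control (median 1267 UMIs) and 3 in cKO. Deep members had at least 8000 UMIs, 8 in each library, and were separated by a gap, from 5685 to 9043 UMIs in control and from 6320 to 8632 in cKO. The control members were thus mostly weakly marked and shallow, and the cKO members mostly strongly marked. No doublet caller was run, so that deep members can hold more than 1 cell was not tested. The 8 deep members held 94635 of the 195156 UMIs of control members and 129215 of the 289807 of cKO members. Levels from UMIs summed over all members therefore weigh these few barcodes heavily.

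**Figure D1:**
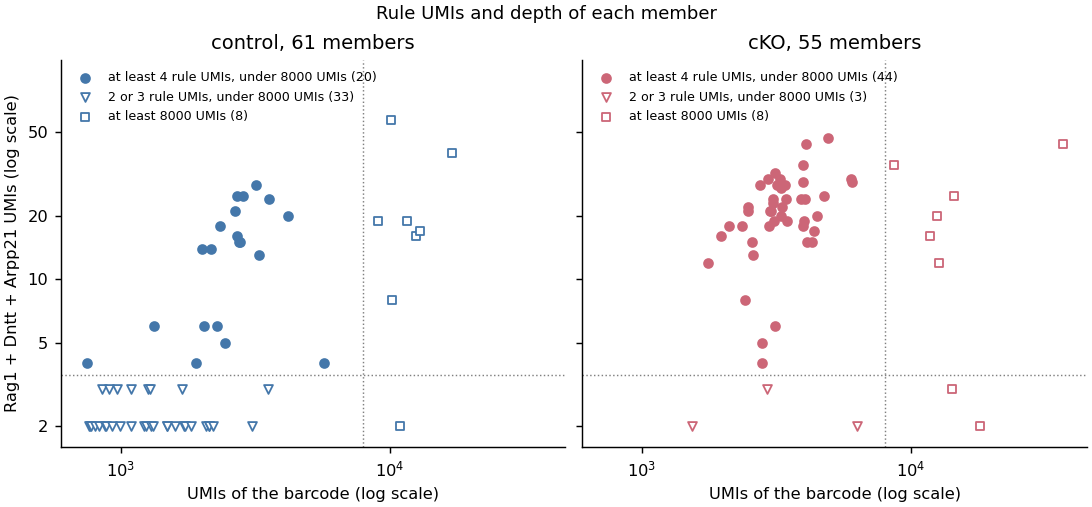
Each point is 1 member barcode of the control or cKO library, by its total UMIs (x axis, log scale) and its summed UMIs of Rag1, Dntt and Arpp21 (y axis, log scale). Control members gather at 2 or 3 rule UMIs and low totals, cKO members around 20 rule UMIs, and 8 deep members of each library lie apart at the right.

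Sequence upstream of the start site is shown for the chosen genes Rag1 and Dntt, for Ptcra, which marks the preceding stage, and for Ccr9, which the rule did not use and which was among the 10 genes highest in members over other T cells. These are the 250 bases before the RefSeq start on GRCm38.p6, written 5′ to 3′ on the gene's strand. Capitals mark E-boxes, the motif CANNTG to which E proteins such as Tcf12 and Tcf3 are known to bind. The pattern CANNTG matches at the same place on both strands, though the middle bases of a marked stretch can differ between them.
Rag1 (chr2:101649533-101649782, minus strand): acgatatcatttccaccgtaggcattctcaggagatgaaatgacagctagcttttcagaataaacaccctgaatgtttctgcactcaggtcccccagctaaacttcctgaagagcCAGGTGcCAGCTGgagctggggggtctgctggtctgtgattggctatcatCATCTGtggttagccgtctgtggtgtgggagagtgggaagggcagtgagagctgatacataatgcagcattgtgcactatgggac
Dntt (chr19:41029025-41029274, plus strand): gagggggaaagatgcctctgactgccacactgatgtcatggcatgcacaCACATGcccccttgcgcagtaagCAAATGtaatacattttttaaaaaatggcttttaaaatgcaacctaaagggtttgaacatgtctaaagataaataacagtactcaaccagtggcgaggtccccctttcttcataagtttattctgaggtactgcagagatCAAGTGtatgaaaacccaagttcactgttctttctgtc
Ptcra (chr17:46763713-46763962, minus strand): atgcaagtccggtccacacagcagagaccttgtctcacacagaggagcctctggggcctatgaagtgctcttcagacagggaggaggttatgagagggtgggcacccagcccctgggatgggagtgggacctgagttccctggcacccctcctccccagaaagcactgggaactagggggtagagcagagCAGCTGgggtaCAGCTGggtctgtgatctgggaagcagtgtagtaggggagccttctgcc
Ccr9 (chr9:123766961-123767210, plus strand): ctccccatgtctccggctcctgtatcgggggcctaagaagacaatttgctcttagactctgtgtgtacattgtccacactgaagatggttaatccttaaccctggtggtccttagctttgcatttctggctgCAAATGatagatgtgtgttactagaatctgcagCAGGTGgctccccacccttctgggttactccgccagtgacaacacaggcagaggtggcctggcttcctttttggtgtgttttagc
E-boxes numbered 3 for Rag1, 3 for Dntt, 2 for Ptcra and 2 for Ccr9. The motif GGAA, the centre of sites bound by ETS factors, occurred on either strand 3, 1, 3 and 1 times in the same order. An E-box was present in 66.2% and GGAA in 93.4% of 32851 such promoter windows, so a match here is a description of the letters and not of a bound site.

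Members carried transcripts of both coreceptors. Cd8b1, the CD8 β chain, was at 1302 CPM (CPM are UMIs per 1000000 UMIs summed over the cells compared; 254 UMIs in 46 of 61 members, 0 to 20 per member with a median of 2) in control and at 1711 CPM (496 UMIs in 52 of 55, 0 to 29 with a median of 8) in cKO. Other T cells had 120 and 306 CPM, so members were 10.8-fold (9.48 to 12.3) and 5.61-fold (5.11 to 6.14) higher. Cd8a, the CD8 α chain, was 13.5-fold and 4.59-fold higher, at 881 and 1018 CPM. Cd4 stood at 215 CPM (42 UMIs in 19 members, at most 5 per member) in control and at 445 CPM (129 UMIs in 47 members, at most 7) in cKO, 7.31-fold (5.17 to 9.85) and 15.5-fold (12.7 to 18.7) above other T cells.

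A Cd4 UMI together with a Cd8a or Cd8b1 UMI was found in 17 of 61 control members (27.9%) and 46 of 55 cKO members (83.6%). Among strongly marked members the counts were 11 of 20 and 41 of 44. When each barcode was thinned to 1000 UMIs, which left out 13 control and 0 cKO members, Cd4 was detected in 23.0% of control and 46.6% of cKO members, against 2.90% and 2.70% of other T cells and 2.17% and 0.382% of B cells, which should lack it. Thinned Cd8b1 detection was 59.2% and 80.7% in members, against 5.18% and 1.23% in B cells. Against mature CD8 T cells, strongly marked members had 2.92-fold (2.44 to 3.46) and 2.16-fold (1.91 to 2.44) more Cd8b1, and Cd4 was 109-fold and 39.8-fold higher. By these UMIs the double-positive label held for 41 of 44 strongly marked cKO members but only 11 of 20 in control. In control, 18 of the 20 had a Cd8a or Cd8b1 UMI. Thinned Cd4 detection in strongly marked members was 33.7% (12.6 to 56.6) in control and 52.6% (36.7 to 67.5) in cKO. Of the weakly marked control members, 21 of 33 had a Cd8b1 UMI and 4 of 33 a Cd4 UMI, so for them the label rests on few UMIs.

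Genes called higher or lower in members than in other T cells met a size rule: a ratio of at least 2, at least 20 UMIs in the higher group and an interval of the ratio that excluded 1. In both libraries 3701 genes could be tested, of which 188 (5.08%) were higher and 185 (5%) lower in both, together 10.1%. In control alone 5.35% of 5005 genes were higher and 5.95% lower, together 11.3%, and in cKO alone 9.42% of 6326 were higher and 12.6% lower, together 22%. The median log2 ratio of all genes tested in both libraries was −0.29 in control and −0.31 in cKO.

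Of a list of 20 genes of the double-positive stage, 3 were used by the rule, 3, Rag2 and Cd1d1 among them, did not reach 20 UMIs in the higher group of both libraries, and the other 14 were higher in both. A gene that reached 20 UMIs only in the members had to be higher, so this count describes the list and is no support for it. Ccr9, the receptor for the thymic chemokine CCL25, stood at 436 CPM in control (31 members, at most 10 UMIs) and 932 CPM in cKO (50 members, at most 16), 71.8-fold and 42.5-fold above other T cells. Aqp11, an intracellular water channel, was 35.9-fold and 71.9-fold higher. Satb1, a chromatin organiser of thymocytes, was among the most abundant, at 1512 and 1943 CPM, 3.35-fold and 5.49-fold higher. Bcl2l1, the anti-apoptotic Bcl-xL gene that sustains double-positive thymocytes, was 6.91-fold and 4.88-fold higher. Rag2 had 13 UMIs in 10 control members and 28 UMIs in 22 cKO members, against 4 and 0 UMIs in other T cells.

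The 10 genes with the highest ratios in both libraries were Slc7a11, Endou, Chrna9, Dgkeos, Ly6d, Cd24a, Sox4, Tubb2b, Ccr9 and Marcks. Ly6d, a surface protein of immature lymphocytes, had 149 UMIs in control and 237 in cKO members, 140-fold (111 to 176) and 260-fold (201 to 342) above other T cells. Cd24a, the heat stable antigen that is lost on maturation, was 121-fold and 165-fold higher. Sox4, a transcription factor of progenitors, was 103-fold and 69.3-fold higher. Endou, an endoribonuclease, stood at 405 and 524 CPM in members, against 15 UMIs in all control and 0 UMIs in all cKO other T cells. Among the genes with the lowest ratios were Ccl4, Klra4, Trim30d, Jak3, Tmem238, Zbtb16 and Prkar2a, each with 0 or 1 UMI in the members of each library. Against a floor of 3 UMIs, Ccl4, an inflammatory chemokine, was at least 3.10-fold lower in control and at least 6.96-fold lower in cKO members.

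**Figure D2:**
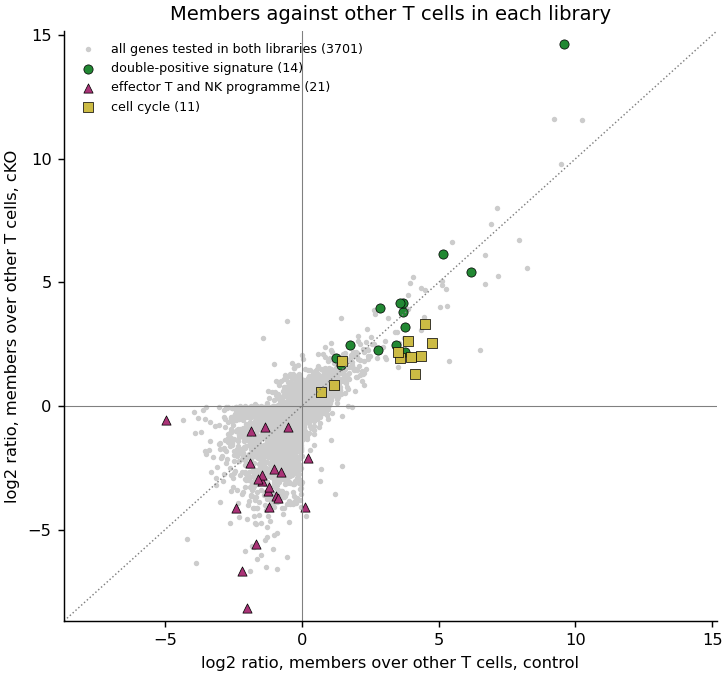
Each point is 1 gene, by the log2 ratio of its CPM in members over other T cells in control (x axis) and in cKO (y axis), with genes of the double-positive, effector and cell cycle lists coloured, for the 3701 genes tested in both libraries. Double-positive stage genes lie at the upper right and most effector genes at the lower left, and the value of Endou in cKO, with 0 UMIs in other T cells, depends on the 0.5 UMIs added to each count.

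Genes of antigen receptor assembly and joining were partly higher. Of 15 listed genes, which include Rag1 and Dntt of the rule, 7 others could be tested in both libraries and 4 were higher. Xrcc6, the Ku70 subunit that binds broken DNA ends, had 54 UMIs in 26 control and 97 UMIs in 42 cKO members, 14.7-fold (10.8 to 19.3) and 15.4-fold (12.2 to 19.0) above other T cells. Lig4, the ligase that closes the joint, was 33.2-fold and 16-fold higher on 20 and 22 UMIs. Hmgb1 and Hmgb2, DNA-bending cofactors of the recombinase, were 3.70-fold to 4.37-fold higher. Most Hmgb2 UMIs lay outside the strongly marked members, which held 30 of 366 (control) and 112 of 536 (cKO). Hmgb2 was less abundant in that set, with 559 against 1875 CPM for all control members, and 748 against 1850 CPM for cKO. Hmgb1 was similar in both, with 2853 against 2511 CPM for control and 2990 against 3171 CPM for cKO. The kinase gene Prkdc, with 2 and 4 UMIs, did not meet the size rule.

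Constant region UMIs of the α chain were few beside those of the β chain. Members had 98 Trac UMIs in control and 148 in cKO, against 1375 and 2638 UMIs of Trbc1 and Trbc2, constant regions that are near-identical and were added together. That is 7.13 Trac UMIs per 100 Trbc UMIs (5.75 to 8.75) in control and 5.61 (4.72 to 6.62) in cKO. Strongly marked members had 4.93 and 5.51, other T cells 32.8 and 40.3, and mature CD8 T cells 27.5 and 27.6. The groups' intervals did not overlap between members and mature T cells in either library. Trbc2 itself was 2.86-fold and 4.03-fold higher in members than in other T cells, and Trac was 0.593-fold and 0.549-fold of their level, short of the size rule. Variable segments of the α locus gave 21 UMIs in each library, in 9 control and 17 cKO members. Per UMI they were above other T cells, at 108 and 72.5 CPM in members and 280 and 113 CPM in strongly marked members, against 30.4 and 44.9 CPM.

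Of 19 genes of the receptor complex and proximal signalling, 16 could be tested in both libraries and 5 were higher: Cd247, Lck, Themis, Trbc1 and Trbc2. Themis, needed for positive selection, was 13.8-fold and 9.17-fold higher, and Lck, the coreceptor-bound kinase, 2.38-fold and 2.62-fold. Cd3d, Cd3e and Cd3g had ratios from 0.740 to 1.14 over both libraries and did not meet the size rule.

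Markers of the double-negative stage were scarce. Ptcra, the pre-TCR α chain, had 16 UMIs in 9 control members and 15 UMIs in 8 cKO members. All 6290 control and 3194 cKO other T cells held 12 and 13 UMIs. After thinning, a Ptcra UMI was found in 6.35% of control and 4.36% of cKO members, both near the share that 3 counts would give. Among other T cells these shares were 0.0214% and 0.0613%. Ptcra was thus low in members but more frequent than in other T cells. Notch1, the receptor that drives early T cell development, had 17 and 12 UMIs, Il2ra, which marks intermediate double-negative cells, 6 and 5, and Kit, of the earliest progenitors, 0 and 2. The control member with the most rule UMIs, 57, stood apart from the double-positive pattern. It held 52 Dntt and 0 Rag1 UMIs, 0 UMIs of Cd4, Cd8a, Cd8b1 and Trac, 42 of Tcrg-C1, 4 of Trdc and 5 each of Il2ra and Notch1. The deepest cKO member, of 36822 UMIs, was similar in part, with 38 Dntt, 0 Rag1, 17 Trdc, 208 Trbc2 and 1 Cd8b1 UMI. It differed in having 6 Cd8a and 3 Ptcra UMIs, only 2 of Tcrg-C1 and 0 of Il2ra.

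Of 22 genes of positive selection and maturation, 17 could be tested in both libraries, 1 was higher and 2 were lower. Cd69 reached 123 CPM (24 UMIs) in control members and 121 CPM (35 UMIs) in cKO, other T cells 211 and 218 CPM, and did not meet the size rule. Among strongly marked members it had 2 UMIs in 1 of 20 control members and 7 UMIs in 5 of 44 cKO members. Id3, an inhibitor of E proteins induced by receptor signals, was the higher gene, at 6.41-fold and 13.3-fold. H2-K1, an MHC class I chain that rises on maturation, and S1pr1, the receptor for thymic exit, were lower. H2-K1 stood at 0.410-fold (0.352 to 0.472) of other T cells in control and 0.118-fold (0.0946 to 0.144) in cKO. The receptor-induced factor Egr1 had 13 and 4 UMIs, Nr4a1 4 and 2, and Ccr7, a receptor of mature thymocytes, 2 and 1. On these lists the strongly marked members, as a set, had UMIs of both coreceptors and few of the pre-TCR α chain and Cd69. They also had few Trac UMIs per Trbc UMI. Rag1 belongs to the rule, so its presence is no result. Rag2, which the rule did not use, had 9 UMIs in strongly marked control members and 24 in strongly marked cKO members.

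Of 22 transcription factors of the T lineage, 20 could be tested in both libraries, 8 were higher and 2 lower. The higher genes were Tcf7, Lef1, Bcl11b, Satb1, Runx1, Myb, Tcf12 and Id3. Myb was 22.0-fold and 12.1-fold higher, Tcf7 8.84-fold and 11.8-fold, and Tcf12, the E protein HEB, 2.40-fold and 3.83-fold. The lower genes were Zbtb16 and Id2. Id2, an E protein inhibitor of effector cells, had 79 UMIs in control and 53 in cKO members, a CPM ratio to other T cells of 0.333 and 0.129. Zbtb16, which encodes PLZF of innate-like T cells, had 1 UMI in each library's members.

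The T-bet gene was near 0 in the strongly marked members. Tbx21 had 9 UMIs in 7 control members, at most 2 in any of them, and 5 UMIs in 3 cKO members, at most 3. Of these UMIs, strongly marked members held 0 in control and 1 in cKO. In place of the count of 0 in 20 control members, a floor of 3 UMIs would be 55.9 CPM, and other T cells had 81.8 CPM. Against that floor, which is not an exact limit, their Tbx21 level was at least 1.46-fold lower than in other T cells of the control library. In cKO the strongly marked members had 6.67 CPM against 122 CPM, a ratio of 0.0823 (0.00139 to 0.306). Thinned detection was 6.15% of control and 1.27% of cKO members, 7.72% and 11.9% of other T cells, and 1.69% and 1.20% of B cells. The cKO share was near that of cKO B cells, but it rests on a mean of 0.7 of 55 members. That is under the 5.45% that 3 counts would give. Whether B cells of this sort made Tbx21 themselves was not tested, so their share is not a known background. The control share came from weakly marked and deep members.

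Ets1 (chr9:32636221-32757820, plus strand of GRCm38) was not lower in the cKO members. In control, members had 101 Ets1 UMIs in 44 of 61 barcodes, 0 to 6 per member with a median of 1, or 518 CPM (422 to 629). In cKO they had 185 UMIs in 53 of 55 barcodes, 0 to 12 with a median of 3, or 638 CPM (550 to 737). The ratio of cKO over control was 1.23 (0.963 to 1.59), a log2 ratio of 0.30 beside a median of 0.25 for all 2546 genes tested, and it did not meet the size rule. Strongly marked members had 708 and 874 CPM, a ratio of 1.22 (0.854 to 1.82). With barcodes of 1 rule UMI taken in, the log2 ratio turned to −0.12.

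The other cells of the cKO library had less Ets1. Other T cells of control and cKO had 506 and 170 CPM, NK cells 374 and 84.3, B cells 246 and 117, and mature CD8 T cells 318 and 195. Within the control library the ratio of members over other T cells was 1.03 (0.833 to 1.24), and 1.42 (0.991 to 1.92) for strongly marked members, which did not meet the size rule. Without the deep members, control members had 706 CPM. Within the cKO library members were 3.77-fold (3.23 to 4.36) above other T cells, and strongly marked members 5.17-fold (4.30 to 6.13). This ratio was above 1 in 19 of 19 alternatives that gave it. Against mature CD8 T cells the strongly marked members were 2.26-fold (1.57 to 3.08) higher in control and 4.48-fold (3.44 to 5.86) in cKO.

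After thinning to 1000 UMIs, Ets1 was detected in 45.5% of control and 54.6% of cKO members, 39.2% and 15.9% of other T cells, and 30.1% and 12.8% of B cells. Unthinned, the shares were 72.1% and 96.4% in members and 73.1% and 61.5% in other T cells. Of the 16 ETS family genes listed, 8 could be tested in both libraries and 1 was higher in members, Ets2, the closest relative of Ets1, at 164 and 300 CPM, 12.1-fold and 18.1-fold above other T cells. Elf1 had 56 and 71 UMIs and ratios of 0.909 and 1.15. Fli1 had 17 and 20 UMIs, and Spi1, Spib and Erg had 0 in both.

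**Figure D3:**
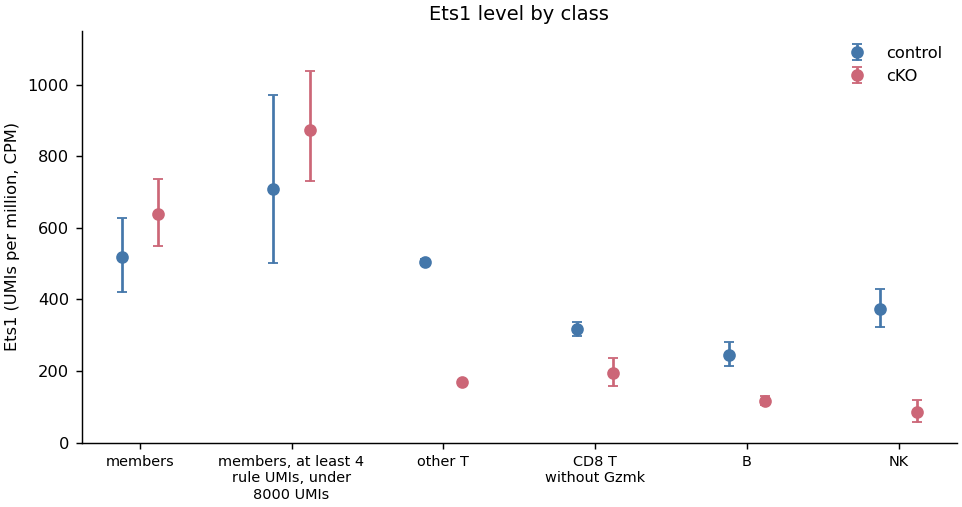
Points show the Ets1 level in CPM (y axis) with exact 95% Poisson intervals for members, strongly marked members and the comparison cells of control and cKO. In cKO, members (638 CPM) stand above other T cells (170 CPM), B cells (117) and NK cells (84.3), while in control members stand at 518, strongly marked members at 708 and other T cells at 506 CPM.

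Cell cycle genes were higher in members than in other T cells, and a few barcodes held most of their UMIs. Of 19 listed genes, 11 could be tested in both libraries and 9 were higher, led by Rrm2, a subunit of ribonucleotide reductase, at 22.5-fold and 10.0-fold. In control, 3 members held 423 of 659 cycle UMIs (64.2%), and the highest, a deep member of 11633 UMIs, held 317. In cKO, 3 members held 478 of 784 (61.0%), and the highest held 243. At least 5 cycle UMIs were found in 20 control and 16 cKO members, and at least 20 in 4 and 8. Strongly marked members held at most 17 cycle UMIs in control and 84 in cKO, with medians of 1 and 2. The 33 weakly marked control members held 212 cycle UMIs, and 15 of these members held at least 5 each, with a median of 2502 CPM per member against 389 CPM in strongly marked control members. After thinning, a cycle UMI was found in 50.1% of control and 50% of cKO members, 23.5% and 26.1% of other T cells, 32.5% and 27.6% of B cells, and 34.2% and 44.7% of strongly marked members.

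Other listed groups moved in part. Of 14 survival genes 7 could be tested in both libraries, Bcl2l1 and Trp53inp1 were higher and Bcl2a1b lower, while Bcl2 was at 0.553-fold and 0.475-fold of other T cells, past the rule in cKO alone. Il7r, the interleukin-7 receptor that double-positive cells switch off, and Cd44, an adhesion receptor of early and activated cells, were lower, Il7r at 0.280-fold and 0.115-fold. Of 5 tested genes of lipid antigen selection 0 were higher and Zbtb16 was lower. Sh2d1a, the adaptor SAP that iNKT selection needs, was 3.11-fold higher in control and had a ratio of 1.69 in cKO, which did not meet the rule. Among 14 interferon-stimulated genes Ifit1 and Ifit3 were lower, among 8 heat shock genes Hspa1b, which has a near-identical copy in Hspa1a, and Hsph1 were lower, and among 13 tested immediate early genes Fosb was lower, at 0.493-fold and 0.125-fold.

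RNA of the effector programme was present in members at a fraction of its level in other T cells. The 21 listed genes, among them the chemokine Ccl5, the granule gene Nkg7, the granzymes Gzma and Gzmb, NK receptors, Id2 and Tbx21, summed to 4612 CPM (4315 to 4923) in control members and 2184 CPM (2017 to 2361) in cKO members. Other T cells had 11343 and 23898 CPM, so members stood at 40.7% of them in control and 9.14% in cKO. All 21 could be tested in both libraries, 0 were higher and 13 lower, with median log2 ratios of −1.34 and −3.01. Ccl5 stood at 0.218-fold in control and 0.00977-fold in cKO, with 48 and 14 UMIs. Nkg7 stood at 0.432-fold and 0.0590-fold. Gzma and Lgals1 had control ratios of 1.09 and 1.17 and did not meet the rule there.

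The level differed between the sets of members. It was 10399 CPM in barcodes of 1 rule UMI, 6441 CPM in weakly marked members, 5283 CPM in deep members and 1827 CPM in strongly marked members. In cKO, barcodes of 1 rule UMI had 17252 CPM, deep members 3808 CPM and strongly marked members 888 CPM. Of the 98 effector UMIs of strongly marked control members, 54 lay in 1 barcode and 17 in another, both at the minimum of 4 rule UMIs. Per barcode, the median of strongly marked members was 778 CPM in control and 983 CPM in cKO, the reverse of the order of the sums. Over all members the median per barcode was 3509 CPM in control (0 to 16881, 12 members at 0, 25 above 5000 CPM) and 994 CPM in cKO (0 to 10785, 8 members at 0, 3 above 5000 CPM). B cells, which should lack most of these genes, had 3287 and 2826 CPM in sum and medians of 5192 and 747 CPM per barcode, and 31 of 300 in cKO were above 5000 CPM. Gene by gene, the median level in percent of other T cells was 37.8% in control members, 13.3% in strongly marked control members and 20.6% in control B cells. In cKO these medians were 11.7%, 2.67% and 9.61%. By sums and by these medians over genes, strongly marked members were under B cells in both libraries, but per barcode the cKO median was above that of B cells. Weakly marked control members were at 52.4%, and their median of 5469 CPM per barcode was near that of control B cells. Over the 21 genes, B cells ranged from 12.4% to 98.5% of other T cells in control and from 5.07% to 260% in cKO. Ly6c2 in B cells stood at 98.5% and 118%, and it gave 1773 of the 8463 effector UMIs of cKO B cells. Whether B cells made some of these transcripts themselves was not tested. The part that RNA from outside the cell or from a second cell in the droplet has in these values was not tested.

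**Figure D4:**
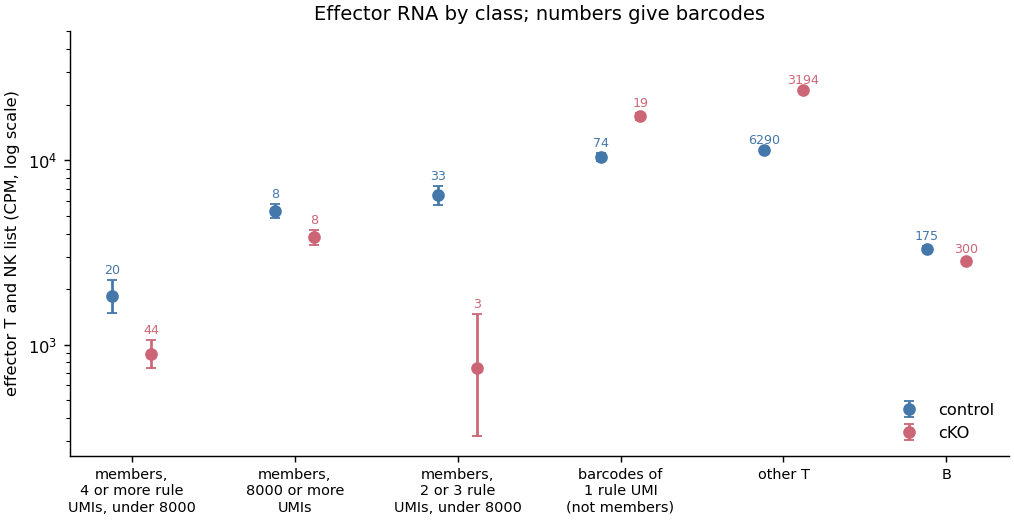
Points show the summed CPM of the 21 effector genes (y axis, log scale) with exact 95% Poisson intervals, by set of members and comparison cells in control and cKO, with the number of barcodes above. Strongly marked members (1827 and 888 CPM) lie under B cells (3287 and 2826) in these sums, though not in the cKO medians per barcode (983 against 747), and other T cells (11343 and 23898) are highest in both libraries.

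Many listed markers of other cell types had 0 UMIs in members. In both libraries all 6 stromal and all 5 erythroid genes were at 0 in members, and 7 of 10 thymic epithelial genes, with Foxn1 and Psmb11 among them, were at 0. Of 10 myeloid genes 8 were at 0, and Cst3 had 31 and 39 UMIs. The 10 B cell genes summed to 384 CPM in control and 383 CPM in cKO, mostly Ighm with 53 and 82 UMIs, while Ebf1 was at 0. The 14 gut epithelial genes were all at 0 in control and gave 25 UMIs in 20 cKO members, at most 2 in any of them. A UMI of a defining marker of another lineage was found in 23 of 61 control and 36 of 55 cKO members. Among other T cells it was found in 2562 of 6290 barcodes in control and 2627 of 3194 in cKO. Of the 8 NK genes listed, members had 42 UMIs in control and 3 in cKO, and Klra4 and Klre1 were lower than in other T cells. Trdc, the γδ receptor constant gene, had 12 UMIs in 4 control members and 41 UMIs in 9 cKO members.

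Between the libraries, 2546 genes could be tested in members, and 194 (7.62%) were higher and 88 (3.46%) lower in cKO, together 11.1%. Among strongly marked members the test reached 1054 genes, of which 54 (5.12%) were higher and 11 (1.04%) lower, together 6.17%. Of the 194 higher genes, 96 could be tested there and 24 were called, and of the 88 lower genes 8 could be tested and 5 were called. In other T cells 10.5% of 12251 genes were higher and 5.18% lower in cKO, together 15.7%, and 24 of the members' higher and 7 of their lower genes were called in the same direction there.

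Of the 17 genes of the double-positive list that the rule did not use, 16 could be tested between the libraries, and 2 were higher in cKO, Ccr9 at 2.13-fold and Cd4 at 2.05-fold. Their median log2 ratio was 0.47 beside 0.25 for all genes. In strongly marked members these ratios were 1.40 and 1.73 and did not meet the size rule. Among 5 genes of receptor gene assembly that the rule did not use and 18 of the receptor complex, 0 met it. Trp53inp1, a p53-induced stress gene, was 2.27-fold higher and Elf2, an ETS factor, 2.60-fold, and in strongly marked members the ratios were 1.79 and 2.19, short of the rule. In those members Mns1, a gene of the double-positive list, was 2.17-fold higher. From other lists, Sh2d1a was 2.07-fold (1.31 to 3.58), the cell cycle gene Hist1h2ap 3.56-fold (1.75 to 9.74) and Ighm 2.21-fold (1.10 to 5.67) higher there. In cKO, 3 strongly marked members held 114 of the 198 cycle UMIs of that set.

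Of 15 effector genes tested, 11 were lower in cKO, among them Ccl5, Nkg7, Gzma, Gzmb, Klrk1 and Cxcr3, with a list median of −1.42 on the log2 scale. Ly6c2 had 43 UMIs in 17 control members and 0 in cKO, at least 21.3-fold lower against a floor of 3 UMIs. Of 11 immediate early genes 7 were lower: Fos, Fosb, Junb, Dusp1, Ier2, Ppp1r15a and Klf6. Fos, an AP-1 subunit, had 109 UMIs in control and 19 in cKO members, 8.34-fold lower. Gimap4, H2-K1, H2-D1 and B2m, of the maturation list, were 2.36-fold to 3.06-fold lower. In strongly marked members 1 effector, 5 immediate early and 3 maturation genes could be tested, and Junb and H2-D1 were lower. The others had too few UMIs. Summed over the list, effector genes there stood at 0.485-fold (0.371 to 0.637) of control, past the size rule. Of the 98 control UMIs behind this value, 54 lay in 1 barcode. The maturation list stood at 0.549-fold (0.442 to 0.685) and the immediate early list at 0.767-fold (0.653 to 0.905), short of the rule. Since 33 of 61 control members but 3 of 55 cKO members were weakly marked, genotype and the strength of marking cannot be told apart in these values.

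By ratio, the 8 genes most raised in cKO members were Calca, Tsc22d1, Fxyd7, Trim24, D1Ertd622e, Aff3, Usp50 and Itm2a. The 8 most lowered were Ly6c2, Rhob, Tcrg-C1, Klrk1, Plac8, Myl10, Serpinb6b and Tcrg-C2. Several of these differences came from 1 barcode. Calca, a neuropeptide gene, had 34 UMIs in cKO members and 0 in control, but 26 of them lay in 1 deep member that also held 135 effector UMIs. Other T cells had 562 CPM of Calca in cKO and 7.25 CPM in control. Fxyd7 had 54 UMIs in cKO members, of which 40 lay in 3. Itm2a, a membrane protein gene induced in selected thymocytes, had 46 against 7 UMIs, of which 40 lay in 1 weakly marked cKO member of 6320 UMIs that also held 7 Cd69 and 10 Trac UMIs. Among lower genes, 42 of 52 control UMIs of Tcrg-C1 and 34 of 41 of Plac8 lay in the member with 57 rule UMIs, and 25 of 26 of Myl10 in 1 member. Other differences were spread over many barcodes. Trim24, a nuclear receptor cofactor, had 29 UMIs in 20 cKO members and 2 in control. Tsc22d1 had 27 UMIs in 12 cKO members and 0 in control, at least 6.06-fold higher, and Aff3, a nuclear factor of lymphoid cells, had 30 UMIs in 17 members against 4. In strongly marked members none of these 3 genes met the size rule. There Aff3 had a ratio of 3.22 (0.968 to 34.5). Trim24, with 19 against 2 UMIs, and Tsc22d1, with 19 against 0, had too few UMIs to be tested.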

How the data were processed

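The 2 libraries of sorted YFP+ thymus cells, 1 per genotype, were used. The authors deposited a matrix of UMI counts per gene and barcode for each, made with Cell Ranger 2.1.1 on mm10, per the submitters' processing notes. The matrix headers name software version 3.0.0, and this difference was not resolved. Every deposited barcode held at least 500 UMIs. Of 32285 features, 99.6% were found in GENCODE vM21.

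Barcodes of at least 500 genes and at most 10% mitochondrial UMIs were kept. UMIs were summed over the barcodes of a class and divided by the class total to give counts per 1000000 (CPM), so each barcode weighs by its UMIs. No doublet caller was run, and members with markers of another lineage and the deepest members were left out in turn as alternatives. Ratios used 0.5 added UMIs, and intervals are exact (Poisson for levels, Clopper-Pearson for shares, conditional binomial for ratios, 95%). A gene was called at a fold of at least 2 with at least 20 UMIs in the higher group and an interval excluding 1. Folds against 0 UMIs used a floor of 3 UMIs over the group. Detection was compared after thinning to 1000 UMIs, as a mean of 20 draws. Genes named in the text were a set of stage genes, up to 6 per list with the most UMIs in members, those past the size rule, and the highest and lowest ratios, and further stage or lineage markers were named after their values were seen. The members and the 22 gene lists were chosen with earlier results of these data known. Promoter sequences came from RefSeq on GRCm38.p6. The scripts were tested on simulated counts and run with scipy 1.17.1, pandas 2.3.3, numpy 2.4.6 and matplotlib 3.10.9 under Python 3.11.15. Alternatives changed the filters, the rule, the size rule, the total and the depth. A few items that the naming rule covers are not reported here.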

Additional observations from a re-analysis of the deposited data

Results flagged for a closer look

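The members' level relative to other T cells lay on opposite sides in the libraries for 3 genes, and the difference was not tested, since each genotype has 1 library. Plac8 had a log2 ratio of 1.20 in control (41 UMIs in members, 34 of them in 1 barcode) and of −3.55 in cKO (4 UMIs). Tcrg-C1 had 1.48 in control (52 UMIs, 42 of them in the same barcode) and −2.43 in cKO (3 UMIs). Drosha, the nuclear nuclease of microRNA processing, had 1.06 in control (22 UMIs, 8 of them in 1 barcode) and −1.38 in cKO (3 UMIs).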

How the results depend on the processing

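No paired analysis was possible because each genotype has 1 library. Of 573 values of 31 results under 26 alternatives, 458 moved by less than counting error or the limit of 1.5 times, 115 moved more and 0 called values changed sign. The Ets1 ratio of members over other T cells in cKO was above 1 in 19 of 19 alternatives.

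With 300 genes required, control had 80 members, and with 1000 it had 30, with 4106 CPM of effector RNA, a thinned effector share of 56.5% and a cKO member share of 1.28%. At 5% mitochondrial UMIs control had 45 members and the cKO share was 1.32%. With members of at least 2000 UMIs control had 31 members, a share of 0.419% and 4252 CPM of effector RNA. A rule minimum of 1 UMI gave 135 control and 74 cKO members (1.83% and 1.25%), effector levels of 7004 and 7295 CPM, 483 CPM of Ets1 in cKO members with a log2 ratio of 1.51 over other T cells and −0.12 over control, 83 genes lower than in other T cells, and thinned shares of 11.8% (Cd4, control), 65.9% (Cd8b1, cKO) and 86.6% (effector, control). A minimum of 3 gave 35 control members (0.473%) and effector levels of 4023 and 1982 CPM. The rule without Dntt gave 36 control members (0.487%) with 4192 CPM of effector RNA, and the rule without Arpp21 1876 CPM in cKO.

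The following 3 alternatives were chosen after seeing the data. A rule minimum of 4 gave 27 control members (0.365%), effector levels of 3882 and 1926 CPM, 53 genes lower in cKO, and thinned control shares of 73.5% (Cd8b1), 1.15% (Tbx21) and 52.3% (effector). The strongly marked members alone numbered 20 in control (0.270%), with 708 and 874 CPM of Ets1 and log2 ratios of 0.51 and 2.37 over other T cells, effector levels of 1827 and 888 CPM, 54 genes higher and 11 lower in cKO, and 88 higher than in other T cells. Their thinned Cd8b1 shares were 80.8% and 92.6%, and in control Cd69 was 1.58%, Tbx21 0%, cell cycle 34.2% and effector 42.4%. Members under 8000 UMIs had 706 and 866 CPM of Ets1, log2 ratios of 0.49 and 2.36, effector levels of 3979 and 878 CPM, and 53 genes lower in cKO.

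Without members that held a marker of another lineage, 38 control and 19 cKO members (0.514% and 0.322%) had 692 and 807 CPM of Ets1, log2 ratios of 0.47 and 2.26, effector levels of 3969 and 2634 CPM, 45 genes higher and 30 lower in cKO, and 74 higher and 91 lower than in other T cells. Without the deepest 10%, log2 ratios of Ets1 were 0.32 and 2.25, cKO members had 806 CPM of it, and effector levels were 3859 and 1757 CPM. As a mean of per-cell CPM, Ets1 was 688 and 836 CPM with log2 ratios of 0.42 and 2.13, and cKO effector RNA 1367 CPM. With mitochondrial and ribosomal genes out of the total, Ets1 was 749 and 855 CPM and effector RNA 6673 and 2926 CPM. Unthinned shares in control and cKO were 75.4% and 94.5% for Cd8b1, 72.1% and 96.4% for Ets1, and 70.5% and 78.2% for cell cycle, and in cKO 85.5% for Cd4, 21.8% for Cd69, 14.5% for Ptcra and 85.5% for effector RNA. Thinned to 1500 UMIs, Ets1 was found in 70.9% of cKO members. A fold of 1.5 called 314 genes higher and 137 lower in cKO and 353 higher and 289 lower than in other T cells, and a fold of 3 called 44 and 38, and 93 and 85. A minimum of 10 UMIs called 172 lower in cKO and 390 higher than in other T cells, and a minimum of 50 called 40 higher and 30 lower in cKO and 66 higher than in other T cells.

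The cause of these moves was not tested, apart from fewer members or another size limit by construction. Depth limits the control members most, since 13 of 61 fell under 1000 UMIs.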
